A study of Mus musculus with 18 samples.

Results

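Among MC3T3-E1 cells treated with ultrasound, libraries with a low and a high share of mitochondrial reads were set against each other. MC3T3-E1 is an established mouse line of pre-osteoblasts, and all cells grew for 5 days on 15 mm discs of irradiated membrane, with 20000 cells seeded in each well. The low-share libraries were replicate 3 of PLLA +US, replicate 3 of PLLA/ZnO +US, and replicates 2 and 3 of PLLA/ZnO@Col +US, where PLLA is a biodegradable polyester, ZnO is zinc oxide, Col is the collagen of the labels and +US is ultrasound for 10 min every day. The high-share libraries were PLLA +US replicates 1 and 2 and PLLA/ZnO +US replicates 1 and 2. The same membranes without ultrasound (-US) gave 9 further libraries, of which 7 are used below as libraries that took no part in the choice. No genotype, allele or other agent is given for any group, and the labels do not say whether replicates are separate cultures, so every spread given here may be technical.

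The 8 libraries are 4 and 4 of 18. They were chosen by 2 measured values among the 9 +US libraries. Thy1, a surface protein of mesenchymal cells, had to reach 0.5 FPKM (fragments per unit of transcript length and of sequencing depth), and the share of a library's counts on genes of the mitochondrial chromosome put it below or above 2%. The share was 1.87%, 1.57%, 1.58% and 1.77% in the low-share libraries, in the order named, against 2.63%, 4.23%, 3.35% and 3.37% in the high-share libraries. The values nearest to the limit were 1.87% in PLLA +US replicate 3 and 2.63% in PLLA +US replicate 1. Thy1 lay between 4.59 and 5.79 FPKM in low-share and between 3.60 and 4.44 FPKM in high-share libraries, and the excluded library, PLLA/ZnO@Col +US replicate 1, had 0.115 FPKM at a share of 2.27%. Because the libraries were divided by their own values, all differences between them are given as descriptions, with no test. The collagen membrane is present on the low side only, where membrane and share cannot be told apart, so differences within PLLA and within PLLA/ZnO are given beside those over all 8 libraries. In both of these membranes replicate 3 alone is set against replicates 1 and 2. Share cannot be told apart there from replicate number or from what is particular to a single library.

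Depth was 49702085 to 78039543 counts in low-share and 53746158 to 59697308 in high-share libraries, and no pair of the 18 libraries agreed within sampling noise (lowest chi-square per degree of freedom 12.2). Log2 levels of autosomal genes correlated at 0.969 to 0.989 among low-share, 0.985 to 0.991 among high-share and 0.915 to 0.968 between low- and high-share libraries. Of 10 markers of the osteoblast line, 8 reached 1 FPKM in at least 3 of the 18 libraries. The other markers, Alpl and Bglap, were near the floor, at no more than 0.178 and 0.573 FPKM in any of the 8 libraries. Summed levels of all 10 were 2909 to 3383 FPKM in low-share and 3764 to 4127 FPKM in high-share libraries. PLLA +US replicate 3 alone carried Kap, a kidney transcript, at 62.4 FPKM, beside others of kidney and blood.

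The mitochondrial genome encodes subunits of the respiratory chain, and the transfer RNAs and ribosomal RNAs needed to translate them. Most of its messenger RNAs carry poly(A) tails and so enter a poly(A) library. Their level depends on the polymerase Polrmt, the DNA-packaging factor Tfam and the RNA-binding protein Lrpprc, all encoded in the nucleus. Nuclear transcripts differ widely in length and in the share of G and C among their bases (GC content). Both properties are known to affect how long an RNA lives in the cell and how well its fragments pass through the preparation of a library.

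Of the transcript properties examined, base composition went furthest with the difference between the libraries, and coding stretches of 4 genes show its range. Arhgap5 and Aspn have the lowest GC content among 12 lower genes named below for their wide gap between the libraries, and Znhit2 and H2ac18 the highest among 11 higher genes named likewise. Each stretch has 90 bases, is written 5′ to 3′ with G and C in capitals, and was taken where the coding sequence comes closest to its own average (GENCODE M21, GRCm38, all on the plus strand).
Arhgap5: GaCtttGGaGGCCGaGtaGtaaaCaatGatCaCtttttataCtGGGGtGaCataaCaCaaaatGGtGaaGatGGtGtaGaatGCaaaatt
Aspn: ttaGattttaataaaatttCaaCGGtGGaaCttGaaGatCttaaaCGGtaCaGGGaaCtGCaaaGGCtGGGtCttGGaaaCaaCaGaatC
Znhit2: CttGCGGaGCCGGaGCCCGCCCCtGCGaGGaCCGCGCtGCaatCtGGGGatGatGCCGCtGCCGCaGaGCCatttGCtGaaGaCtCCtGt
H2ac18: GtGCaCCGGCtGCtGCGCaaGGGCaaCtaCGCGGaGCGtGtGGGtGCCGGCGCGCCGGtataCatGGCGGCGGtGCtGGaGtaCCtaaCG
The Arhgap5 and Aspn stretches hold 34 G or C bases each, the Znhit2 stretch 60 and the H2ac18 stretch 62. They cover coding bases 181 to 270 of Arhgap5 (chromosome 12, gene 52503972 to 52571975), 721 to 810 of Aspn (chromosome 13, 49544443 to 49567565), 451 to 540 of Znhit2 (chromosome 19, 6061192 to 6062472) and 91 to 180 of H2ac18 (chromosome 3, 96245497 to 96246082).

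Levels are log2 CPM values (counts scaled to library size) after TMM scaling on nuclear genes, and a difference is the mean of low-share minus the mean of high-share libraries. An autosomal gene with an FPKM of 1 in at least 3 of the 18 libraries was tested, and it is called separated where the 4 low-share values do not overlap the 4 high-share values and the means differ at least 1.5-fold. Of 11489 autosomal genes, 2431 were separated with lower levels in low-share libraries (21.2%) and 38 with higher levels (0.331%). The median difference over all 11489 genes was 0.07, so the lower genes made up a long tail on 1 side. Of the 2431 lower genes, 2136 (87.9%) were also lower in each of the 4 low-share libraries than in any of the 7 -US libraries that reached the Thy1 limit, as were 2572 (22.4%) of all 11489 genes. Of the 38 higher genes, 7 were above all 7 -US libraries in each low-share library, as were 1463 of all 11489 genes. These counts are descriptions, since the low-share values chose the separated genes. The higher genes numbered 49 to 90 when 1 of the 8 libraries was left out, with 90 without PLLA/ZnO@Col +US replicate 3, 75 without PLLA +US replicate 2 or 3, 61 without PLLA/ZnO +US replicate 3 and 59 without PLLA/ZnO +US replicate 2.

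Separated genes with higher levels in low-share libraries were few, at 38 against 2431 lower, and this depended on the fold threshold. Without that threshold, 2243 genes were higher and 3047 lower with groups that did not overlap. H2ac18, which encodes a copy of histone H2A, was at 1.07, 5.18, 2.76 and 3.19 FPKM in low-share libraries, against 0.455, 0.149, 0.218 and 0.167 FPKM in high-share libraries (difference 3.17, 1.65 within PLLA and 4.31 within PLLA/ZnO). Histone H2A genes are near-identical copies that can share reads, so this value is uncertain. Ramp3, a partner protein of calcitonin-family receptors (chromosome 11, 6658521 to 6677475), was at 32.0, 37.4, 42.1 and 32.4 FPKM in low-share libraries, against 18.3, 19.7, 19.3 and 18.7 FPKM in high-share libraries. The low-share values stood well clear of a narrow high-share group, with a difference of 0.88 (0.63 within PLLA, 0.97 within PLLA/ZnO).

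Ier3, an early response gene that protects from apoptosis (chromosome 17, 35821684 to 35822923), was at 172, 106, 129 and 119 FPKM in low-share libraries, against 77.3, 92.8, 60.9 and 75.8 FPKM in high-share libraries. It was the only separated member with higher levels among 27 tested immediate early genes, of which Klf6 was lower and 25 were not separated. Cyp1a1, a cytochrome P450 induced through the aryl hydrocarbon receptor (chromosome 9, 57687928 to 57703824), was at 6.60, 5.08, 11.4 and 7.35 FPKM in low-share libraries, against 3.51, 3.96, 3.20 and 3.97 FPKM in high-share libraries. The -US libraries spanned 2.36 to 5.49 FPKM for Cyp1a1 and overlapped both sides.

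Tigit, an inhibitory receptor of lymphocytes (chromosome 16, 43648867 to 43664146), was at 7.34, 6.60, 6.60 and 6.66 FPKM in low-share libraries, against 4.21, 4.29, 3.20 and 2.17 FPKM in high-share libraries. Across the -US libraries with Thy1 it spanned 2.74 to 10.1 FPKM and overlapped both sides. The highest of these values was in PLLA/ZnO@Col -US replicate 2, at a share of 4.54%. Efemp1, which encodes the matrix protein fibulin-3 (chromosome 11, 28853204 to 28926743), was at 0.125, 3.43, 2.49 and 2.45 FPKM in low-share libraries, against 0.0569, 0.0362, 0.0848 and 0.0306 FPKM in high-share libraries. The level in PLLA +US replicate 3 was close to the high-share values, so the Efemp1 difference of 4.30 rested on the other 3 libraries (1.09 within PLLA, 5.62 within PLLA/ZnO). Without ultrasound, Efemp1 was at 2.61 FPKM in PLLA/ZnO -US replicate 3 and 3.09 FPKM in PLLA/ZnO@Col -US replicate 2. The mitochondrial shares of these libraries were 2.64% and 4.54%, so a high Efemp1 level was not limited to low shares. Efemp1 was at 0 to 0.356 FPKM in the remaining -US libraries with Thy1. Ccdc85b, Smim3, Cnp, Nxph4 and Znhit2 were further higher genes with a wide gap, with differences of 0.59 to 0.74.

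**Figure D1:**
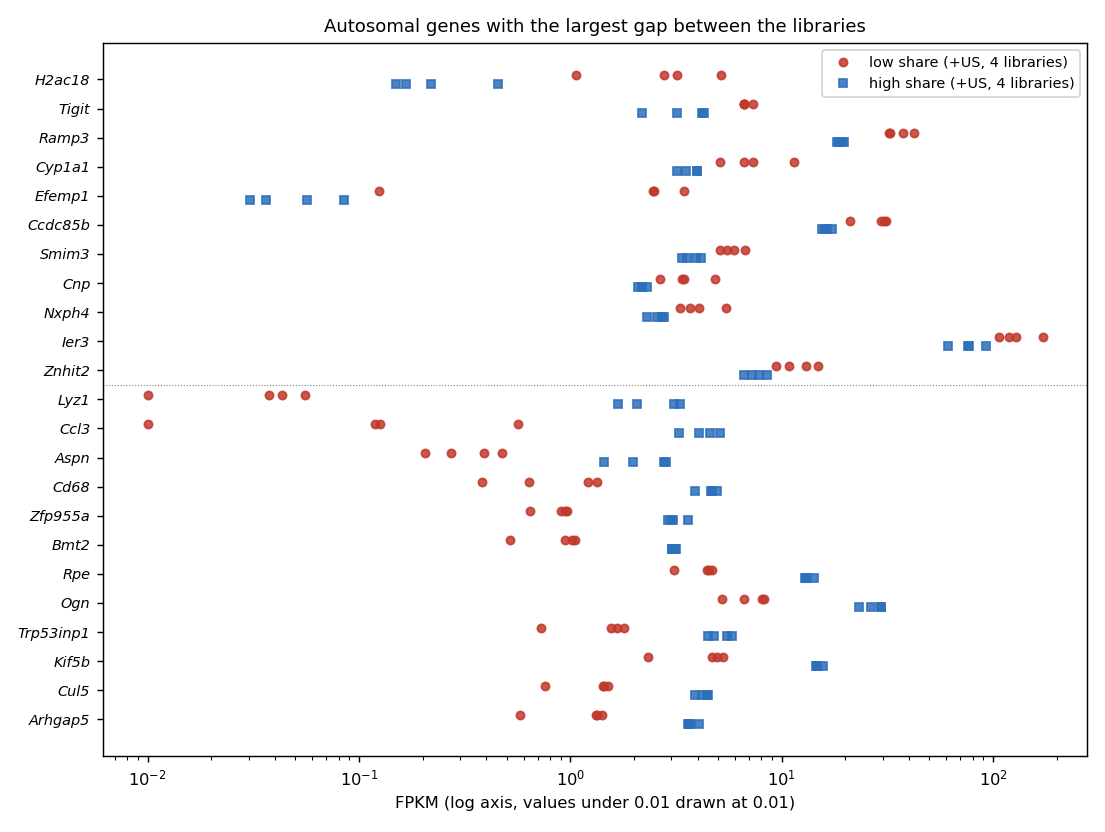
FPKM per library (log axis) of 11 higher and 12 lower autosomal genes with a wide gap, with low-share libraries as circles and high-share libraries as squares, 4 of each per gene. The lower genes include Lyz1 and Ccl3, near 0 in low-share libraries, and a run of genes from Zfp955a to Arhgap5 with differences of -1.72 to -1.995.

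Lower levels in low-share libraries were spread over many kinds of gene. Ogn, which encodes the small matrix proteoglycan osteoglycin (chromosome 13, 49608046 to 49624501), was at 8.26, 5.23, 6.60 and 8.03 FPKM in low-share libraries, against 26.3, 23.1, 29.6 and 29.5 FPKM in high-share libraries (difference -1.995). Aspn, of the same protein family and nearby on the chromosome, was at 0.473, 0.388, 0.271 and 0.205 FPKM in low-share libraries, against 1.98, 1.44, 2.78 and 2.83 FPKM in high-share libraries (difference -2.75). Both had a GC content at the low end of all genes, 36.3% for Ogn and 34.3% for Aspn.

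Arhgap5, a GTPase-activating protein, was at 1.41, 0.578, 1.34 and 1.31 FPKM in low-share libraries, against 3.60, 4.08, 3.66 and 3.68 FPKM in high-share libraries (difference -1.80). Kif5b, a heavy chain of the transport motor kinesin, was at 4.67, 2.33, 4.91 and 5.27 FPKM in low-share libraries, against 14.6, 14.6, 14.7 and 15.6 FPKM in high-share libraries (difference -1.89). Cul5, the scaffold of a ubiquitin ligase (chromosome 9, 53614582 to 53670014), was at 1.51, 0.759, 1.42 and 1.44 FPKM in low-share libraries, against 4.17, 4.496, 3.89 and 4.42 FPKM in high-share libraries (difference -1.80). In all 3 genes PLLA/ZnO +US replicate 3 was the lowest library and the high-share values lay close together. Rpe, an enzyme of the pentose phosphate pathway, and Trp53inp1, a stress gene induced by p53, were also lowest in that library, with differences of -1.72 and -1.95. Zfp955a, a zinc finger gene, and Bmt2 had differences of -1.90 and -1.89.

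Across 11478 autosomal genes with a known transcript, the difference between low- and high-share libraries went with transcript GC content at a Spearman rho of 0.75 (0.62 within PLLA, 0.66 within PLLA/ZnO and 0.77 for the 2 collagen libraries against all high-share libraries). Genes are not independent replicates, and the 8 libraries are shared by all of them, so no p is given. In the quintile of genes with the lowest GC content (median 42.3%) the median difference was -1.08, and 73.3% of genes were separated and lower. In the next quintiles, with medians of 46.8%, 50.4%, 54.2% and 58.2%, the median differences were -0.26, 0.10, 0.24 and 0.28, and the shares lower were 26.0%, 5.01%, 1.18% and 0.305%. The relation was steep below the middle of the range and nearly flat above it. The 2431 lower genes had a median GC content of 43.2% and the 38 higher genes of 56.0%, against 50.4% over all tested genes. GC content of the coding sequence (rho 0.69, 10061 genes) and of the 3′ UTR (rho 0.68, 9885 genes) gave similar values.

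Transcript length tracked the difference more weakly. Length, taken from the ratio of count to FPKM, had a rho of -0.25 with the difference (-0.19 within PLLA, -0.38 within PLLA/ZnO and -0.16 for the collagen libraries). The median differences in the quintiles of length, with median lengths of 1121, 3067, 4715, 6790.5 and 11044 bases, were 0.12, 0.18, 0.12, 0.03 and -0.28. Only the quintile of longest transcripts had a median below 0 over the 8 libraries, and 36.6% of its genes were separated and lower, against 12.1% in the quintile of shortest transcripts. Within PLLA/ZnO the fall began earlier, with medians of 0.27, 0.22, 0.08, -0.08 and -0.54. Within quintiles of GC content the rho for length lay between -0.27 and -0.12, and within quintiles of length the rho for GC content lay between 0.61 and 0.82. The library PLLA/ZnO +US replicate 3 bore much of the length relation, which had a rho of -0.15 without it.

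A correction for GC content, added after the values were seen, left part of the length relation in place. For each library the median departure from the average library, in 20 groups of genes by GC content, was subtracted. It was interpolated between the groups and held constant beyond the middle of the lowest and highest group. The rho for transcript length was then -0.17 (-0.10 within PLLA, -0.34 within PLLA/ZnO). The rho for coding length moved the other way, to -0.35 with the correction (-0.35 within PLLA, -0.47 within PLLA/ZnO), against -0.19 without it. For 3′ UTR length the rho was 0.04 with the correction, against -0.27 without it. Of 11489 genes, 664 were then separated and lower (5.78%) and 393 higher (3.42%), so 62.8% of the separated genes were lower, against 98.5% without the correction. Of the 2431 lower genes 604 remained, and of the 38 higher genes 11.

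**Figure D2:**
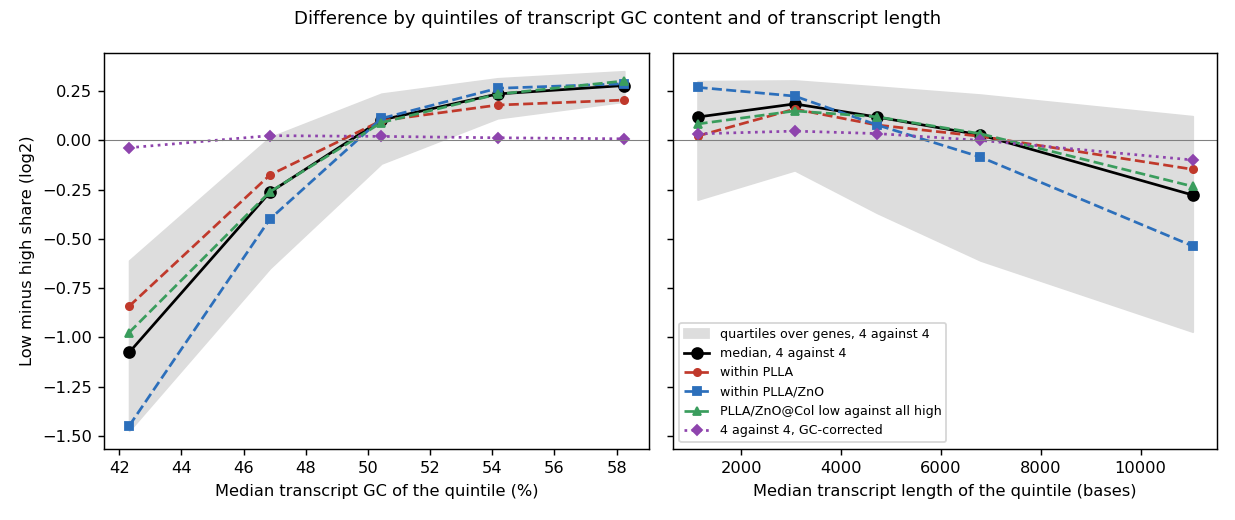
Median difference between low- and high-share libraries (log2, low minus high) in quintiles of autosomal genes by transcript GC content (left, 11478 genes) and by transcript length (right, 11489 genes), with the quartiles over genes as a grey band and lines for each membrane and for the GC-corrected levels. The median runs from -1.08 to 0.28 over the quintiles of GC content, and from 0.12 to -0.28 over those of length.

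Genes of the mitochondrion that are encoded in the nucleus did not follow the mitochondrial transcripts as a group. Of 47 tested subunits of oxidative phosphorylation, 0 were separated and higher and 2 lower, Ndufs1 and Uqcrb, and the median difference was 0.26. Mitochondrial ribosomal proteins (55 tested) had a median of 0.27 with only Mrpl1 separated and lower, and import proteins and chaperones (25 tested) a median of 0.22 with Clpx, Hspd1 and Tomm70a lower. These shares were below the 21.2% over all genes, and the GC-corrected medians were 0.16, 0.20 and 0.10. Cytosolic ribosomal proteins, whose reads can be split with pseudogenes, had a similar median of 0.26 (47 tested, with Rpl23 and Rpl5 lower).

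Factors that make and keep mitochondrial RNA included several of the lower genes, as did all genes at 21.2%. Of 16 tested genes for mitochondrial transcription, replication and nucleoid, 6 were separated and lower, and of 19 for mitochondrial RNA processing and stability, 5. Tfam (chromosome 10, 71225464 to 71238280) was at 4.37, 2.71, 4.39 and 4.31 FPKM in low-share libraries, against 7.34, 8.65, 7.82 and 8.78 FPKM in high-share libraries (difference -1.10, and -0.51 with the GC correction). Lrpprc (chromosome 17, 84705247 to 84790562) was at 7.38, 5.28, 4.57 and 6.10 FPKM in low-share libraries, against 8.90, 10.1, 8.84 and 9.57 FPKM in high-share libraries (difference -0.74, GC-corrected -0.47). Both were lower in every low-share library.

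Trmt10c, a subunit of the enzyme that cuts the 5′ ends of mitochondrial transfer RNAs (chromosome 16, 56032609 to 56037819), was at 1.31, 0.758, 1.29 and 1.297 FPKM in low-share libraries, against 3.11, 4.74, 3.77 and 4.14 FPKM in high-share libraries (difference -1.80, GC-corrected -0.75). Polrmt, with a GC content of 60.9%, was at 8.98, 8.24, 12.3 and 10.5 FPKM in low-share libraries, against 7.92, 8.92, 8.33 and 8.56 FPKM in high-share libraries. The Polrmt groups overlapped, with a difference of 0.20 that was -0.02 within PLLA and -0.04 within PLLA/ZnO. Ppargc1b, a coactivator of mitochondrial biogenesis, also overlapped (difference -0.10).

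Enzymes of the TCA cycle included 2 lower genes of 15 tested, Dld and Sucla2, with differences of -1.48 and -1.45 (GC-corrected -0.20 and -0.57). Of 15 genes of mitochondrial dynamics and mitophagy 4 were lower, among them Dnm1l, the fission GTPase, at -1.64 (GC-corrected -0.83). Of 12 regulators of mitochondrial biogenesis, Sirt1 and Gabpa were lower, at -1.51 and -1.54. The shares lower in these 3 lists were 13.3%, 26.7% and 16.7%, around the 21.2% over all autosomal genes.

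The mitochondrial transcripts themselves chose the libraries and are given only for comparison. The 13 messenger RNAs have GC contents of 31.9% to 41.1% and differences of -1.33 to 0.14, with a median of -0.94. For mt-Co1, which encodes a catalytic subunit of cytochrome c oxidase, the difference was -1.299, and the 452 autosomal genes within 1 percentage point of its GC content had a median of -1.36. Autosomal medians taken this way for each of the 13 had a median of -1.47, against -0.94 for the 13 themselves. With the GC correction the median of the 13 differences was 0.49. Most of the 13 lie below the middle of the lowest GC group, where the correction was held constant.

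**Figure D3:**
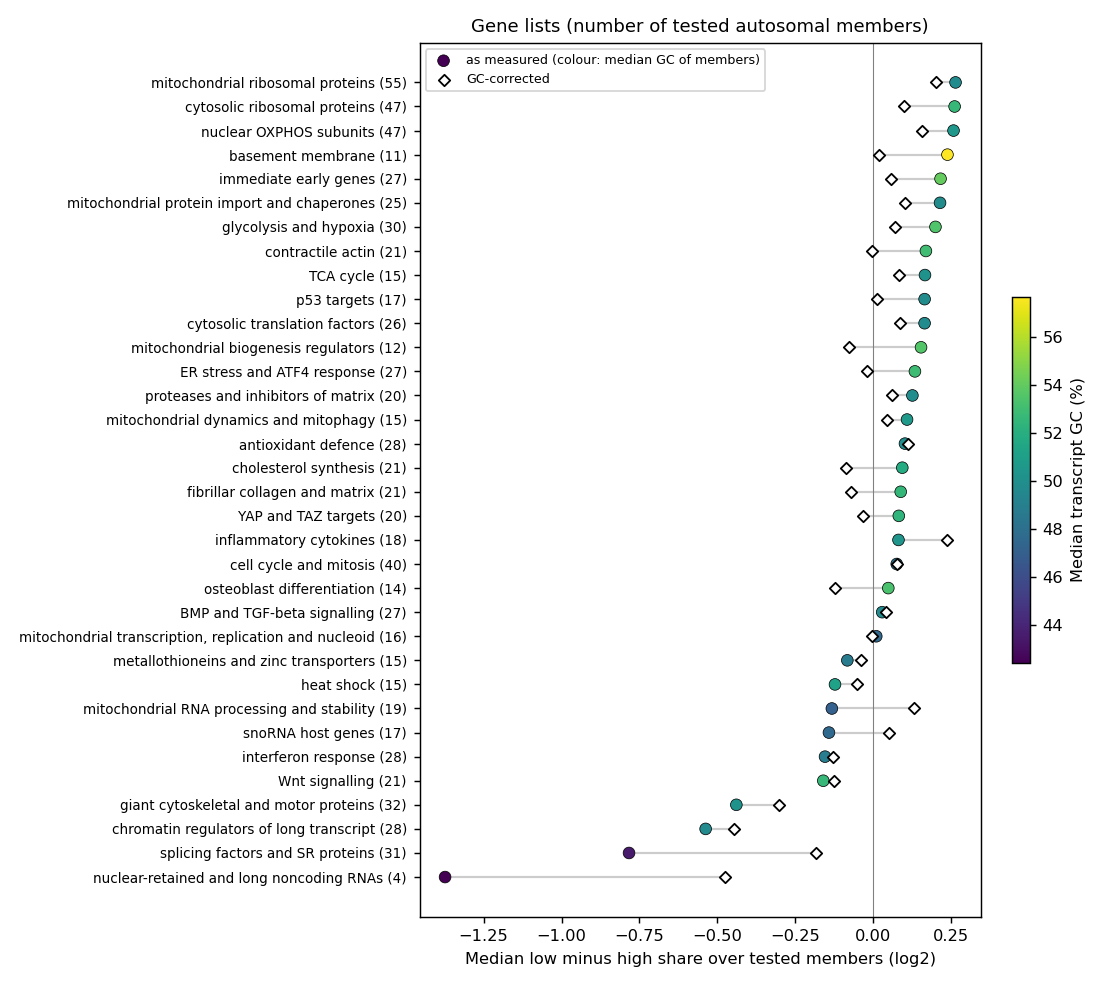
Median difference between low- and high-share libraries (log2, low minus high) over the tested autosomal members of each functional gene list with 4 or more of them, marker lists left out, with the number of members in parentheses, as measured (circles, coloured by the members' median GC content) and GC-corrected (diamonds). Among these lists, long noncoding RNAs (-1.37) and splicing factors (-0.78) are lowest and have the lowest GC content, and both lie closer to 0 with the correction.

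Genes of RNA splicing were low as measured. Of 31 tested splicing factors and SR proteins, 20 were separated and lower (64.5%, against 21.2% of all autosomal genes) and 0 higher. Their median difference was -0.78 and their median GC content 43.5%. The corrected median was -0.18, with 6 lower (19.4%, against 5.78% of all autosomal genes) and 2 higher. Luc7l3, a component of the U1 snRNP machinery (chromosome 11, 94287890 to 94321988), was at 3.35, 2.06, 2.99 and 3.85 FPKM in low-share libraries, against 8.85, 11.9, 8.83 and 9.48 FPKM in high-share libraries (difference -1.73, GC-corrected -0.51). Srsf10, a splicing regulator, had a difference of -1.63 (GC-corrected -0.63) and the kinase Prpf4b of -1.60 (GC-corrected -0.34).

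All 4 tested members of the list of nuclear-retained and long noncoding RNAs were lower, against 21.2% of all autosomal genes. Malat1, a nuclear RNA of speckles (chromosome 19, 5795690 to 5802672), was at 10.1, 3.90, 8.76 and 17.3 FPKM in low-share libraries, against 35.9, 20.6, 36.6 and 27.3 FPKM in high-share libraries. The difference was -1.77 with a wide spread on both sides (GC-corrected -0.76). Neat1, the scaffold of paraspeckles and a long transcript (chromosome 19, 5824708 to 5845478), was at 5.32, 2.25, 4.57 and 4.56 FPKM in low-share libraries, against 6.90, 8.69, 6.39 and 6.81 FPKM in high-share libraries (difference -0.88, GC-corrected -0.64). Tug1 and Gas5 had differences of -1.74 and -1.01 (GC-corrected -0.31 and 0.03). Zinc finger genes named Zfp with a number were a set chosen after their values were seen. Of 245 tested members 126 were lower (51.4%) and 0 higher, with a median of -0.75. The corrected median was -0.17, with 21 lower and 1 higher. The corrected share lower of 8.57% was near the 5.78% over all autosomal genes.

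Lists of long transcripts were also low, though their GC content was near the average of all genes. Chromatin regulators of long transcript (28 tested, median GC content 49.6%) had 12 lower members and a median of -0.54, and -0.45 with 8 lower after the correction. Setd2, the histone methyltransferase of transcribed gene bodies (chromosome 9, 110532597 to 110618633), was at 3.60, 1.62, 2.28 and 2.86 FPKM in low-share libraries, against 6.75, 7.92, 5.67 and 6.61 FPKM in high-share libraries (difference -1.46, GC-corrected -0.77). Giant cytoskeletal and motor proteins (32 tested, median GC content 50.2%) had 10 lower members and a median of -0.44, and -0.30 with 6 lower after the correction. The shares lower were 42.9% and 31.2%, against 21.2% of all autosomal genes, and 28.6% and 18.8% after the correction, against 5.78%. In these lists the membranes differed, with medians of -0.32 within PLLA and -0.85 within PLLA/ZnO for chromatin regulators, and -0.11 and -0.71 for giant proteins.

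In the lists of bone and matrix genes 0 to 21.4% of tested members were lower, against 21.2% of all autosomal genes. Of 21 tested fibrillar collagen and matrix genes 3 were lower and 0 higher (median 0.09), of 11 basement membrane genes 0 were separated (median 0.24), and of 14 osteoblast differentiation genes 3 were lower and 0 higher (median 0.05). Col1a1, a chain of type I collagen (chromosome 11, 94936224 to 94953042), was at 1019, 993, 1085 and 1053 FPKM in low-share libraries, against 972, 884, 944 and 946 FPKM in high-share libraries. These FPKM values do not overlap, but the log2 CPM levels by which genes are called separated did, with a difference of 0.11. Runx2, the osteoblast transcription factor (chromosome 17, 44495987 to 44814797), was at 8.44, 6.22, 6.26 and 8.29 FPKM in low-share libraries, against 9.14, 8.12, 8.87 and 9.44 FPKM in high-share libraries, and the groups overlapped (difference -0.33, and -0.59 with separated groups after the correction).

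Spp1, which encodes osteopontin (chromosome 5, 104435118 to 104441050), was at 1026, 703, 759 and 908 FPKM in low-share libraries, against 1537, 2171, 1750.4 and 1941 FPKM in high-share libraries (difference -1.16, GC-corrected -0.46). Postn, a matrix protein of periosteum (chromosome 3, 54361109 to 54391037), was at 18.3, 14.5, 10.5 and 13.9 FPKM in low-share libraries, against 45.0, 49.4, 39.7 and 41.7 FPKM in high-share libraries. Its difference of -1.68 moved only to -1.22 with the correction, and the 2 groups stayed apart. Dcn, a small proteoglycan of collagen fibrils, had a difference of -0.97 that turned to 0.05 with the correction. Tnfrsf11b, the decoy receptor that restrains osteoclast formation, had a difference of -1.16 (GC-corrected -0.22).

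Chaperone, cell cycle and interferon genes included further lower members, in shares of 26.7%, 27.5% and 32.1%, against 21.2% of all autosomal genes, and nothing particular to these lists is read from them. Hsp90aa1, the inducible cytosolic HSP90 (chromosome 12, 110690605 to 110702728), was at 46.4, 36.4, 39.8 and 47.4 FPKM in low-share libraries, against 121, 162, 123 and 122 FPKM in high-share libraries (difference -1.67, GC-corrected -0.88), and 4 of 15 heat shock genes were lower. Of 40 cell cycle genes 11 were lower and 0 higher, among them the spindle motor Kif11 (-1.65, GC-corrected -0.59) and the checkpoint kinase Bub1 (-1.72, GC-corrected -0.48), while the median of the list was 0.08. Of 28 interferon response genes 9 were lower and 0 higher, with Ifit1 at -1.004 (GC-corrected -0.13) and Gbp3 at -1.41 (GC-corrected -0.99). Of 27 genes of BMP and TGF-beta signalling 5 were lower, including the receptors Bmpr1a and Tgfbr1 at -1.59 and -1.65 (GC-corrected -0.38 and -0.40), and of 15 metallothioneins and zinc transporters 4, including Slc30a4 at -1.78 (GC-corrected -0.55). Idi1 and Hmgcs1, enzymes of cholesterol synthesis, were at -1.88 and -1.25, and 4 of 21 genes of that pathway were lower. In 4 further lists 1 member was lower and 0 higher: glycolysis and hypoxia (30 tested, median 0.20), contractile actin (21, 0.17), YAP and TAZ targets (20, 0.08) and antioxidant defence (28, 0.10). The other lists had lower and no higher members, in shares of 5.56% to 26.9% that lay on both sides of the 21.2% over all genes, with 7 of 26 translation factors (median 0.17), 4 of 17 snoRNA host genes (-0.14), 3 of 17 p53 targets (0.17), 4 of 27 ER stress genes (0.13), 3 of 20 matrix proteases and inhibitors (0.13), 2 of 21 Wnt genes (-0.16) and 1 of 18 inflammatory cytokines (0.08).

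Some genes were lower without a low GC content in the GENCODE transcript taken for each gene. That transcript may lack parts of the RNA that was sequenced, and this was not tested. Smim10l1, with a GC content of 61.0%, was at 6.65, 4.21, 4.82 and 6.17 FPKM in low-share libraries, against 12.4, 16.2, 15.4 and 15.8 FPKM in high-share libraries (difference -1.50, GC-corrected -1.78). Tmed7, a cargo receptor of the early secretory pathway, was at 4.60, 2.38, 4.94 and 4.15 FPKM in low-share libraries, against 8.48, 8.84, 9.22 and 9.69 FPKM in high-share libraries (difference -1.26, GC-corrected -1.43, GC content 51.9%). Slmap, a tail-anchored membrane protein, Hdgfl3 and Septin10, a septin of the cytoskeleton, had corrected differences of -1.49, -1.33 and -1.26. These 5 genes were picked for their corrected differences after the values were seen, and they carry no test. Ppih, a cyclophilin of the spliceosome, was the gene of the other direction picked this way (difference 0.97, GC-corrected 1.16). It was at 8.59, 8.35, 7.35 and 7.97 FPKM in low-share libraries, against 6.60, 5.19, 1.18 and 6.21 FPKM in high-share libraries, so PLLA/ZnO +US replicate 1 set most of the difference.

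Transcripts of macrophages formed a separate block. Cd68, a lysosomal protein of macrophages (chromosome 11, 69664213 to 69666153), was at 1.33, 0.381, 1.21 and 0.634 FPKM in low-share libraries, against 3.90, 4.67, 4.64 and 4.95 FPKM in high-share libraries (difference -2.48, GC-corrected -2.71). Lyz2, the macrophage lysozyme (chromosome 10, 117277331 to 117282321), was at 7.41, 6.58, 6.37 and 5.77 FPKM in low-share libraries, against 18.4, 19.02, 18.6 and 17.1 FPKM in high-share libraries (difference -1.52). Its neighbour Lyz1, a near-identical copy whose reads may be shared with it, was at 0, 0.0554, 0.0432 and 0.0375 FPKM in low-share libraries, against 3.08, 3.32, 1.67 and 2.07 FPKM in high-share libraries. Ccl3, a macrophage chemokine (chromosome 11, 83647844 to 83649355), was at 0.120, 0.125, 0 and 0.565 FPKM in low-share libraries, against 4.07, 4.56, 3.28 and 5.11 FPKM in high-share libraries (difference -4.79).

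Itgam, an integrin of myeloid cells, and Tyrobp, a signalling adaptor of the same cells, had 0 counts in all 4 low-share libraries and 1525 and 154 counts over the 4 high-share libraries. Against 3 counts over the low-share group these were at least 548-fold and 55.3-fold lower in low-share libraries, a bound that covers counting error only. Of 13 markers of macrophages and osteoclasts 9 passed the filter on low values, which genes of this kind could pass through the high-share and -US libraries alone, and 7 were separated and lower. In bulk RNA, fewer cells of a type and less RNA per cell cannot be told apart.

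The myeloid transcripts did not follow the mitochondrial share outside the 8 libraries. The summed level of the 7 genes Itgam, Tyrobp, Csf1r, Ctss, Fcer1g, Cd68 and Lyz2 was 9.14, 7.24, 7.81 and 6.68 FPKM in low-share libraries, against 28.1, 28.6, 28.2 and 27.3 FPKM in high-share libraries. Among -US libraries it was 8.495 FPKM in PLLA/ZnO -US replicate 3, at a share of 2.64%, and 6.99 FPKM in PLLA/ZnO@Col -US replicate 2, which had the largest share of all, 4.54%. In the other 5 -US libraries with Thy1 it was 28.1 to 32.8 FPKM. The 7 genes were taken because they were separated, so their split between the 8 libraries follows from that choice. The other tested markers, Cd14 and Ctsk, had differences of -0.05 and -0.08. All 13 markers summed to 25.1 to 33.7 FPKM in low-share and 48.9 to 51.5 FPKM in high-share libraries. Endothelial and adipocyte markers were low on both sides, with sums of 0.0528 to 0.328 FPKM in low-share and 0.0118 to 0.120 FPKM in high-share libraries for 7 endothelial genes, and of 0.249 to 0.629 FPKM in low-share and 0.454 to 0.895 FPKM in high-share libraries for 3 adipocyte genes. The 9 kidney tubule markers summed to 60.2 to 129 FPKM in low-share libraries, against 40.0 to 46.3 FPKM in high-share libraries. Outside PLLA +US replicate 3, which also held Kap, nearly all of this was the water channel Aqp1. It was at 56.8, 60.1, 78.5 and 63.1 FPKM in low-share libraries, against 46.1, 39.8, 45.8 and 45.5 FPKM in high-share libraries, a difference of 0.50 that was under the fold set for a separated gene. The part of these transcripts in the other differences was not tested.

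**Figure D4:**
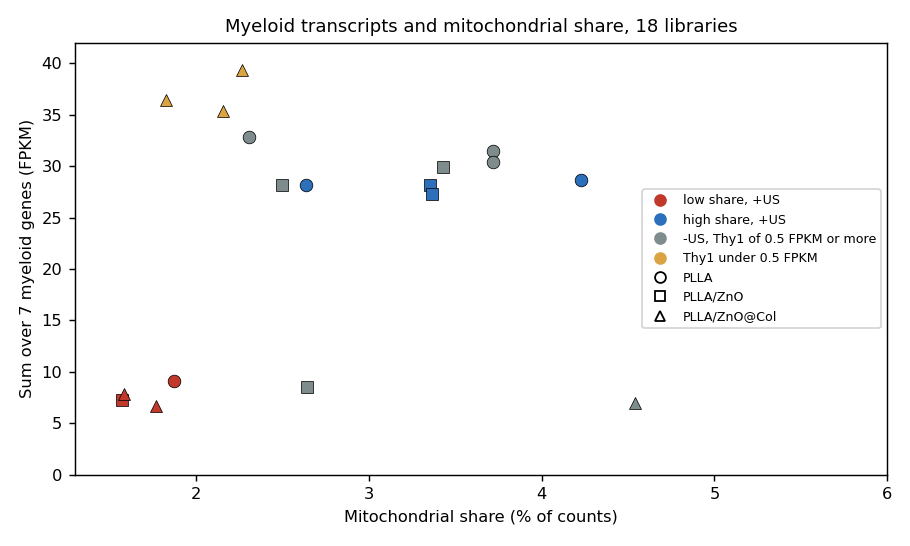
Summed FPKM of 7 myeloid genes against the mitochondrial share of counts in all 18 libraries, with colour for the set of libraries and shape for the membrane. The 7 genes were taken because they were separated between low- and high-share libraries. The 4 low-share libraries lie between 6.68 and 9.14 FPKM and the 4 high-share libraries between 27.3 and 28.6 FPKM, and 2 -US libraries with shares of 2.64% and 4.54% lie with the low-share libraries.

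Each library was given a GC slope, the Spearman rho across autosomal genes between GC content and the library's log2 ratio to the mean of the 15 libraries with Thy1, and a length slope likewise. GC slopes were 0.60, 0.62, 0.75 and 0.70 in low-share libraries, against -0.42, -0.52, -0.42 and -0.56 in high-share libraries. The 7 -US libraries had GC slopes of -0.65 to -0.05, all below those of the low-share libraries. The 2 -US libraries with few myeloid transcripts, PLLA/ZnO@Col -US replicate 2 and PLLA/ZnO -US replicate 3, had GC slopes of -0.54 and -0.24, within that range. Length slopes were -0.13, -0.41, -0.22 and -0.02 in low-share libraries, against 0.27, 0.19, -0.01 and 0.15 in high-share libraries. The -US libraries spanned both sides in length slope, from -0.30 to 0.42.

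The 7 -US libraries took no part in the choice and allow tests. Over them no relation of the length slope to the mitochondrial share was detected (Pearson r = 0.35, exact permutation p = 0.396; Spearman rho = 0.46, exact permutation p = 0.302; r = 0.42 without the 2 libraries farthest from the median share). The GC slope had r = -0.85 (exact permutation p = 0.0317, adjusted over the 2 relations 0.0635) and rho = -0.82 (exact permutation p = 0.0341, adjusted 0.0683), and r = -0.98 without the 2 farthest libraries. All tests were two-sided, and neither relation passed 0.05 after adjustment over the 7 libraries. Over all 9 -US libraries, with the 2 of Thy1 under 0.5 FPKM, the GC slope passed (r = -0.896, exact permutation p = 0.000931, adjusted 0.00186) and the length slope did not (r = 0.52, exact permutation p = 0.151, adjusted 0.151). Those 2 libraries are of PLLA/ZnO@Col -US and outside the Thy1 limit of the choice. The GC slope was added after the values were seen, which the adjustment does not cover. The 7 libraries lay in 2 sets, since those with shares of 2.31% to 2.64% had GC slopes of -0.24 to -0.05 and those with shares of 3.43% to 4.54% had slopes of -0.65 to -0.53. The direction was that of the 8 ultrasound libraries, with AT-rich transcripts higher where the share was larger.

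**Figure D5:**
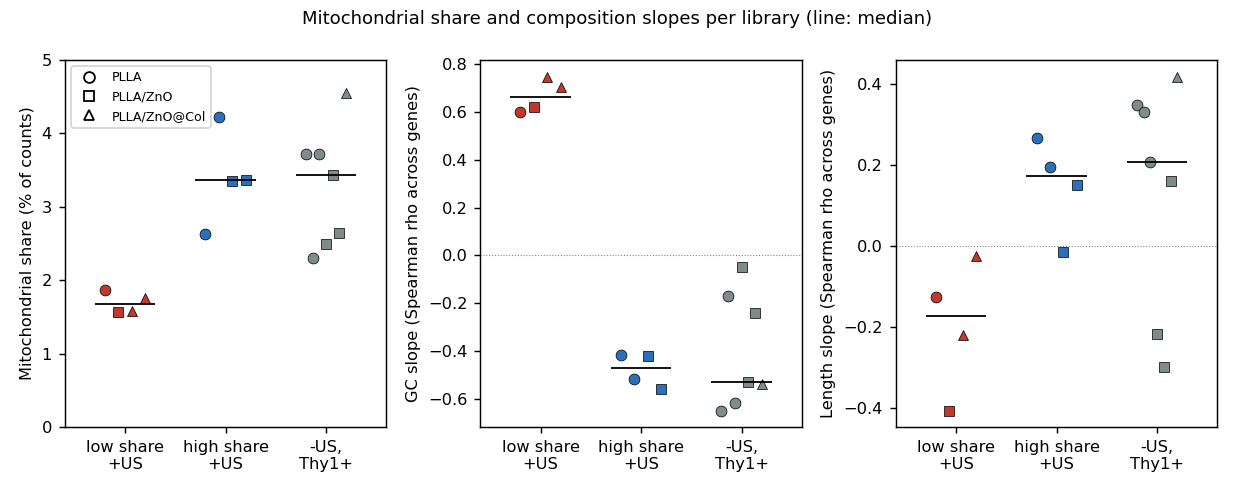
Mitochondrial share (left, % of counts), GC slope (middle) and length slope (right) of each library, by set, with the median as a line and membranes by shape. The GC slopes of the 4 low-share libraries, 0.60 to 0.75, are above those of all high-share and -US libraries, while the length slopes of -US libraries span -0.30 to 0.42.

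Per gene, 6 libraries without ultrasound (PLLA -US and PLLA/ZnO -US) were fitted with membrane and log2 mitochondrial share, which left 3 residual degrees of freedom. By edgeR's quasi-likelihood test with Benjamini-Hochberg adjustment over 11899 nuclear genes, 368 genes rose with a larger share (3.09%) and 1 fell, Gm17828 (0.0084%). Of the 368, 340 are autosomal. Among these, 335 (98.5%) belong to the 2431 genes that were lower in low-share ultrasound libraries, against 21.2% of all autosomal genes. They are 13.8% of the 2431, while 2.96% of all autosomal genes rose with the share. Of all 2431, 91.0% had a positive slope, against 47.2% of all tested autosomal genes. Both sets were poor in G and C, with a median GC content of 40.8% for the 340 genes and 43.2% for the 2431, against 50.4% over all tested autosomal genes.

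Named genes with lower levels that also passed this test included Hsp90aa1 (slope 1.72 per log2 unit of share, SE 0.21, edgeR adjusted p = 0.00998), Bub1 (1.40, SE 0.17, adjusted p = 0.0106), Zfp955a (1.35, SE 0.21, adjusted p = 0.0190) and Luc7l3 (1.35, SE 0.21, adjusted p = 0.0179). Smim10l1, whose GENCODE transcript had the high GC content given above, had a slope of 1.21 (SE 0.20, edgeR adjusted p = 0.0215), and Trmt10c of 1.59 (SE 0.28, adjusted p = 0.0245). Arhgap5 had a slope of 2.15 (SE 0.41, adjusted p = 0.0320) and Dld of 0.99 (SE 0.17, adjusted p = 0.0260). Tfam, Spp1 and Ogn had slopes of 0.71, 0.74 and 1.67 that did not pass (SE 0.26, 0.20 and 0.40; edgeR adjusted p = 0.243, 0.110 and 0.0691). Lyz1 and Cd68 had slopes of 0.26 and 0.14 with standard errors of 1.63 and 0.91 (adjusted p = 0.951 and 0.953). In the lists, 6 of 31 splicing genes, 6 of 40 cell cycle genes and 29 of 245 numbered Zfp genes rose with the share, against 2.96% of autosomal genes. These lists had the most such genes, and the Zfp set was chosen after its values were seen. All other lists had at most 2, with 0 of 28 chromatin regulators, 0 of 32 giant proteins and 0 of 47 subunits of oxidative phosphorylation.

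With the GC correction as offsets, edgeR called 0 of the 11899 genes (smallest adjusted p = 0.118), with 941 at an unadjusted p under 0.05, against 1837 without the correction. The calls also depended on PLLA/ZnO -US replicate 1, since without it 0 genes passed in edgeR (smallest adjusted p = 0.0502, 1201 at an unadjusted p under 0.05). Without PLLA -US replicate 1 or 3 it called 42 and 89 genes, all of them rising with the share, and without PLLA -US replicate 2 it called 82 rising and 82 falling. With 7 libraries and no membrane term it called 788 rising and 85 falling, so the near absence of falling genes was not stable. DESeq2 called 792 rising and 45 falling genes on the same 6 libraries. The part of base composition in the difference of the mitochondrial share was not tested.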

How the data were processed

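Poly(A) RNA of MC3T3-E1 cells was extracted with Trizol and sequenced by Illumina protocols, per the labels' protocols. The submitters' processing notes name cutadapt 1.9, FastQC and the build GRCm38. Which aligner and counter were used, and how strand and shared reads were handled, is not given in the sources used here. As named per the file headers, the authors deposited whole-number counts per gene and FPKM values for 30452 genes in 18 libraries. Libraries held 48307580 to 78039543 counts, and counting error was small beside the spread for all but the lowest genes.

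Libraries were divided as the report states. Levels are log2 CPM (the count plus 2, scaled to library size), with TMM factors over the 11899 nuclear genes of at least 1 FPKM in 3 libraries; the 37 mitochondrial genes were left out of the scaling. Transcript length was the count divided by FPKM and library total (median 1.49 times the GENCODE M21 length), and GC content came from the GENCODE M21 transcript with the longest coding sequence (99.9% of tested autosomal genes). The test without ultrasound used edgeR 4.0.16 (R 4.3.3; common biological coefficient of variation 0.147); correlations used scipy 1.17.1. On simulated counts for that test, 26 of 100 genes with a slope of 1 and 98 of 100 with a slope of 2 were recovered over 11899 genes, with 11 false calls.

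The libraries, the 35 functional and 8 marker lists and the rules were chosen with earlier results of these data known. The rule for named genes took the 12 higher and 12 lower separated genes with the widest gap (11 and 12 are given), a mean of at least 2 FPKM on the higher side and a name that marks neither a clone nor a pseudogene, up to 3 separated genes per list, and a panel of 9 genes; some genes it took are not reported here. The list of replication-dependent histones used older symbols and matched 0 genes of the table. GC content, its correction and the genes taken from it were added after the values were seen. Alternatives covered scaling, pseudocounts, filters, fold thresholds, DESeq2 1.42.0, a replicate block and each library left out.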

Additional observations from a re-analysis of the deposited data

Results flagged for a closer look

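In 6 of the 58 sets of 4 to 7 libraries looked at, the lowest library lay farther from the others than Dixon's 95% limit allows, which chance alone does in about 1 in 20 sets. In PLLA/ZnO +US replicate 3 the log2 level was 3.52 for Rpe, 2.49 for Trp53inp1, 2.89 for Cul5 and 2.90 for Arhgap5, each far below the other 3 low-share libraries. In PLLA +US replicate 3 it was -5.31 for Lyz1, which had no count there, and -1.67 for Efemp1, which lay near the high-share libraries.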

How the results depend on the processing

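Scaling by DESeq2 size factors, by library totals or with mitochondrial genes moved the counts of separated genes by under 1.5 times and moved none of the 109 named genes by more than its spread between libraries. The 38 higher genes became 18 on log2(FPKM + 1), 247 with no filter, 11 with an FPKM of 5 in 4 of the 8 libraries, 4 at a fold of 2, 2243 with no fold threshold, 184 without the collagen membrane and 393 with the GC correction, and 49 to 90 with a library left out. The 2431 lower genes became 1087 at an FPKM of 5, 1525 at a fold of 2 and 664 with the GC correction, and 2259 to 2596 with a library left out. Without a fold threshold 57.6% of separated genes were lower. The rho for GC content was 0.678 without the collagen membrane and 0.676 for 3′ UTR GC content, and 0.727 to 0.762 with a library left out; the rho for length was -0.291 to -0.152. With the GC correction 16 named genes turned to a positive difference: Uqcrb 0.27, Ssbp1 0.15, Tomm70a 0.30, Bnip3l 0.46, Rpl5 0.33, Gas5 0.0315, Snhg1 0.48, Dcn 0.0510, Adamts5 0.0388, Klf6 0.14, Canx 0.23, Dnajb9 0.16, Hspa4l 0.10, Slc30a7 0.12, Gpx8 0.0896 and Prrx1 0.39. The cause was not tested. The 369 genes called without ultrasound became 837 with DESeq2, 162 with no FPKM filter, 873 with 7 libraries and no membrane term and 0 with the GC correction, and 0 to 544 with a library left out (0 without PLLA/ZnO -US replicate 1, and 42, 164 and 89 without PLLA -US replicates 1, 2 and 3). With the replicate number as a block they became 1829 (1096 rising and 733 falling), with 1 residual degree of freedom, and 401 with the block and the GC correction. The numbers do not pair these libraries: same-numbered libraries correlated at -0.22, -0.32 and -0.06, and no library correlated best with its own number. The r of GC slope with share was -0.969 to -0.818 with a library left out, with an exact permutation p of 0.0722 without PLLA -US replicate 2 or PLLA/ZnO -US replicate 1 and 0.0833 without PLLA/ZnO -US replicate 2 or 3. The r of length slope with share was 0.07 to 0.63. Over all 9 -US libraries r was -0.896 for the GC slope and 0.52 for the length slope.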

Other observations

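Gapdh, a glycolytic enzyme often used as a reference gene (chromosome 6, 125161715 to 125165773), varied widely among the 8 ultrasound libraries. It was at 58.2, 54.7, 151 and 38.5 FPKM in low-share libraries, against 58.1, 19.7, 16.5 and 15.1 FPKM in high-share libraries, and the groups overlapped. Among the 7 -US libraries with Thy1 it spanned 16.9 to 202 FPKM. The gene has many processed pseudogenes that can share its reads, and it was picked after its values were seen.

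The Y-linked genes Uty, Kdm5d, Eif2s3y and Ddx3y of this line had differences of -1.26 to -2.19 between low- and high-share libraries. Autosomal genes within 1 percentage point of their GC content (35.8% to 43.8%) had medians of -0.78 to -1.52, and the GC-corrected differences of these 4 genes were -0.20 to -0.76.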
